A study of Homo sapiens with 60 samples.

Results

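Genes for 10 heat shock proteins were followed in SW1783, an established human astrocytoma cell line, after 24 h of exposure to extracts of herbal medicines. They were taken by symbol from the 60675 genes of the count table: all 10 had a row, 8 of them for proteins of the cytosol (HSPA1A, HSPA1B, HSPA8, HSPH1, DNAJB1, HSP90AA1, HSP90AB1 and HSPB1) and 2 for proteins of the mitochondrial matrix (HSPD1 and HSPE1). The study measured RNA in 60 libraries to describe what each of 8 extracts does to these cells. Both mixtures, Yijin-tang (3 libraries at each dose) and Soshiho-tang (2), were extracted with water and used at 500 µg/mL (the high dose), 100 µg/mL (medium) or 20 µg/mL (low). The other 6 were ethanol extracts of single herbs. Those same doses were used in triplicate for Longan Arillus, Zizyphi Semen and Liriopis seu Ophiopogonis Tuber. For Schisandrae Fructus, also in triplicate, the doses were 310, 62 and 12.4 µg/mL. Single libraries were made with Aucklandiae Radix (160, 32 and 6.4 µg/mL) and with Polygalae Radix (30, 6 and 1.2 µg/mL). For these last 3 herbs the high dose was, by the design text of the series, the IC20, a concentration set by its inhibition of the cells, and the lower doses were dilutions of it. The vehicle was dimethyl sulfoxide in 3 libraries; the sample labels give it as 0.1% and the design text gives another concentration, so which was used is not settled here.

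Heat shock proteins are chaperones: they bind proteins that are unfolded or not yet folded and help them fold, travel or be degraded. Their genes share a transcription factor, HSF1, which is held inactive in unstressed cells, partly by Hsp90 and Hsp70 themselves, and is released when unfolded protein accumulates. Released HSF1 binds heat shock elements, repeats of the letters NGAAN in alternating direction, upstream of the genes. In astrocytes and gliomas the same proteins are abundant and are studied for their part in survival under proteotoxic stress.

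The Hsp70 proteins hold client proteins through cycles of ATP hydrolysis. HSPA1A (ENSG00000204389, chr6:31815464-31817946, plus strand, GRCh38) and HSPA1B (ENSG00000204388, chr6:31827735-31830255, plus strand) are neighbouring, stress-inducible copies that encode almost the same protein, and HSPA8 (ENSG00000109971, chr11:123057489-123063230, minus strand) is the constitutive cognate. HSPH1 (ENSG00000120694, chr13:31134974-31162388, minus strand) is the Hsp110 protein that exchanges the nucleotide of Hsp70, and DNAJB1 (ENSG00000132002, chr19:14514770-14529770, minus strand) is the Hsp40 partner that delivers clients to it. HSP90AA1 (ENSG00000080824, chr14:102080738-102139699, minus strand) encodes the inducible cytosolic Hsp90 and HSP90AB1 (ENSG00000096384, chr6:44246166-44253888, plus strand) the constitutive form; both keep kinases and steroid receptors in a state ready for activation. HSPB1 (ENSG00000106211, chr7:76302544-76304295, plus strand), or Hsp27, is a small heat shock protein that holds unfolded clients without ATP. HSPD1 (ENSG00000144381, chr2:197486581-197516737, minus strand) and HSPE1 (ENSG00000115541, chr2:197499994-197503457, plus strand), Hsp60 and its lid Hsp10, form the folding chamber of the mitochondrial matrix and lie head to head. Positions are those of GENCODE release 29, and all 10 are protein-coding genes.

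Some of these rows share reads. The deposited values are expected counts, in which a read that matches several genes is divided among them. All 60 values of HSPA1A, HSPA1B, HSP90AA1, HSP90AB1 and HSPE1 were not whole numbers (100%), as were 96.7% of those of HSPD1, against 20% for HSPB1, 3.33% for HSPA8 and DNAJB1 and none for HSPH1. HSPA1B held between 40.7% and 50.7% of the reads of the HSPA1A and HSPA1B pair, with a median of 45.0%, and the division of shared reads by the counting cannot be told apart from the levels of the 2 genes. Pseudogene rows held little of the family's reads: the rows named after HSPD1 came to 0.949% of its counts, those after HSPE1 to 0.624% and those after HSPA8 to 0.0434%.

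Upstream sequence is shown for 6 members, because their levels moved in different directions in the same libraries while the same factor is known for the whole family. RefSeq promoter windows of GRCh38.p14, from 250 bases before to 50 bases after an annotated start, were searched on both strands for 2 adjoining heat shock element units, GAANNTTC or TTCNNGAA, and for 3, GAANNTTCNNGAA or TTCNNGAANNTTC; a match to 3 units holds 2 overlapping matches to 2 units. The 10 members had 16 windows. The 250 bases before the start are printed 5′ to 3′ on the gene's strand, with the GAA and TTC of every match in capitals, for HSPA1A (chr6:31815293-31815542, plus strand), HSPA1B (chr6:31827488-31827737, plus strand), HSPA8 (chr11:123062137-123062386, minus strand), DNAJB1 (chr19:14518398-14518647, minus strand), HSP90AA1 (chr14:102087045-102087294, minus strand) and HSPB1 (chr7:76302423-76302672, plus strand).
HSPA1A: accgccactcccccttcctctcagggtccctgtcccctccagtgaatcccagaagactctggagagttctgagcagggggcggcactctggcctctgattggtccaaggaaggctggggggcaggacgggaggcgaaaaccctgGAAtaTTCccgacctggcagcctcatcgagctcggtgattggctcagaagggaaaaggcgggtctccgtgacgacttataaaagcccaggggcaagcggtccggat
HSPA1B: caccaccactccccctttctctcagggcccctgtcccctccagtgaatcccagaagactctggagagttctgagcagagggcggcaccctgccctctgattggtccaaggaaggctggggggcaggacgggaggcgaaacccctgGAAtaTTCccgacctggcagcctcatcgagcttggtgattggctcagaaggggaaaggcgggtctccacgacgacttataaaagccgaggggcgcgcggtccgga
HSPA8: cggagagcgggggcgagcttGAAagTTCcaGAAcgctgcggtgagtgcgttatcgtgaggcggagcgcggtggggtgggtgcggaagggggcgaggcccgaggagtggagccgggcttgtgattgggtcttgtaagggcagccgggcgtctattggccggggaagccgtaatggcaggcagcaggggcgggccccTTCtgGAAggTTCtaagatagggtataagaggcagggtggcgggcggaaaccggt
DNAJB1: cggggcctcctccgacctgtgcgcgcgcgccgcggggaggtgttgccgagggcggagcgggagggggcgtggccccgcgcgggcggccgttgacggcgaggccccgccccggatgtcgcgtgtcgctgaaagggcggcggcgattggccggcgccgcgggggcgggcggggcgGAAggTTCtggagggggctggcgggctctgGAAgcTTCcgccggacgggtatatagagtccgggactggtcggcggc
HSP90AA1: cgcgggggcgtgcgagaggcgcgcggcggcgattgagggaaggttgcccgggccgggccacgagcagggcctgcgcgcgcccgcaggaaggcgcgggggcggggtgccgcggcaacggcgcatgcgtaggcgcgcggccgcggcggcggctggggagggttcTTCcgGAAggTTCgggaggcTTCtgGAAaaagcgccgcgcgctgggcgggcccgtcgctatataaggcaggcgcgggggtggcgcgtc
HSPB1: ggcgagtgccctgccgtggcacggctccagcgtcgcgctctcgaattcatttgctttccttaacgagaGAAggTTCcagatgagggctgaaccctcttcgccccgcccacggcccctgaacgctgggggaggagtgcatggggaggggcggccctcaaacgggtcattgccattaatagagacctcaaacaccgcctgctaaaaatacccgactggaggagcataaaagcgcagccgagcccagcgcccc

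HSPA8 held 2 matches to 3 units, 230 and 55 bases before its start, and HSP90AA1 held 1 at 88 bases before its start and a further match to 2 units at 68. The DNAJB1 window shown held 2 matches to 2 units, 77 and 47 bases before the start, and HSPB1 held 1 at 182. HSPA1A and HSPA1B held 1 match to 2 units each, at 106 and 105 bases, in windows that were identical at 277 of 299 positions. Over all windows, 4 of the 10 members had a match to 3 units in at least 1 window (HSPA8, HSP90AA1, HSP90AB1 and HSPD1), while 0.608% of the 27305 genes with a window had one. A match to 2 units was found for 8 of 10 members and for 16.2% of genes. HSPH1 and HSPE1 had none in their windows. A match describes these letters only; no binding was measured.

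**Figure D1:**
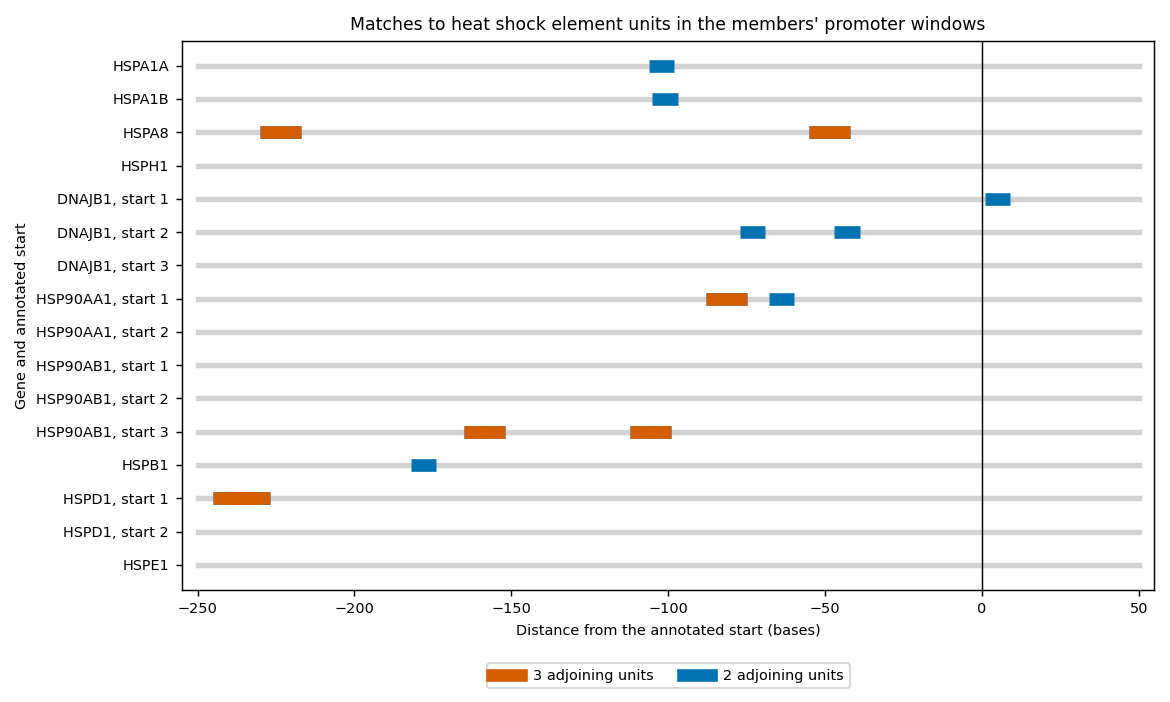
Matches to heat shock element units in the 16 promoter windows of the 10 members. The x axis gives bases from the annotated start; grey lines are the windows, orange bars matches to 3 adjoining units and blue bars matches to 2. HSPA8, HSP90AA1, HSP90AB1 and HSPD1 each hold an orange bar in 1 window, and HSPH1 and HSPE1 hold neither kind.

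Total counts lay between 18.73 and 35.52 M per library (median 25.79 M), so counting error was small for these genes, whose mean counts ran from 1157 for HSPE1 to 39315 for HSP90AB1. The library names fall into 5 sets, and the 3 vehicle libraries form a set of their own, so that treatment and library set cannot be told apart in a comparison with vehicle; the 3 doses of an extract share a set. Nothing says that libraries of a group were separate cultures, so the p-values cover the spread among libraries, which may be technical. Of the 9 astrocyte and glioma markers, VIM (median 4909.9 CPM, counts scaled to library size) and SOX9 (74.0 CPM) were detected. SLC1A3 (23.9 CPM) and NES (6.23 CPM) were detected too, whereas GFAP, S100B, AQP4, OLIG2 and ALDH1L1 reached at most 0.541 CPM in any library. Of the leukocyte and neuron lists, CD68 (208 CPM), SNAP25 (28.6 CPM) and SYT1 (21.7 CPM) were also detected. So were, at lower medians, PTPRC (8.4 CPM), SYN1 (6.77 CPM) and CSF1R (3.13 CPM). AIF1 and CD3E (medians of 0), RBFOX3 (0.222 CPM) and GAD1 (0.612 CPM) of those lists were at or near 0. The high-dose library of Polygalae Radix stood apart: 20.3% of its counts came from mitochondrially encoded genes, against 11.6% to 11.9% in the vehicle libraries. Longan Arillus medium replicate 3 stood apart from its group in several members, with HSPB1 at 548 CPM against 330.3 and 339 CPM, HSP90AA1 at 1517 CPM against 1129 and 1109 CPM, and HSPE1 at 62.2 CPM against 46.1 and 43.1 CPM.

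**Figure D2:**
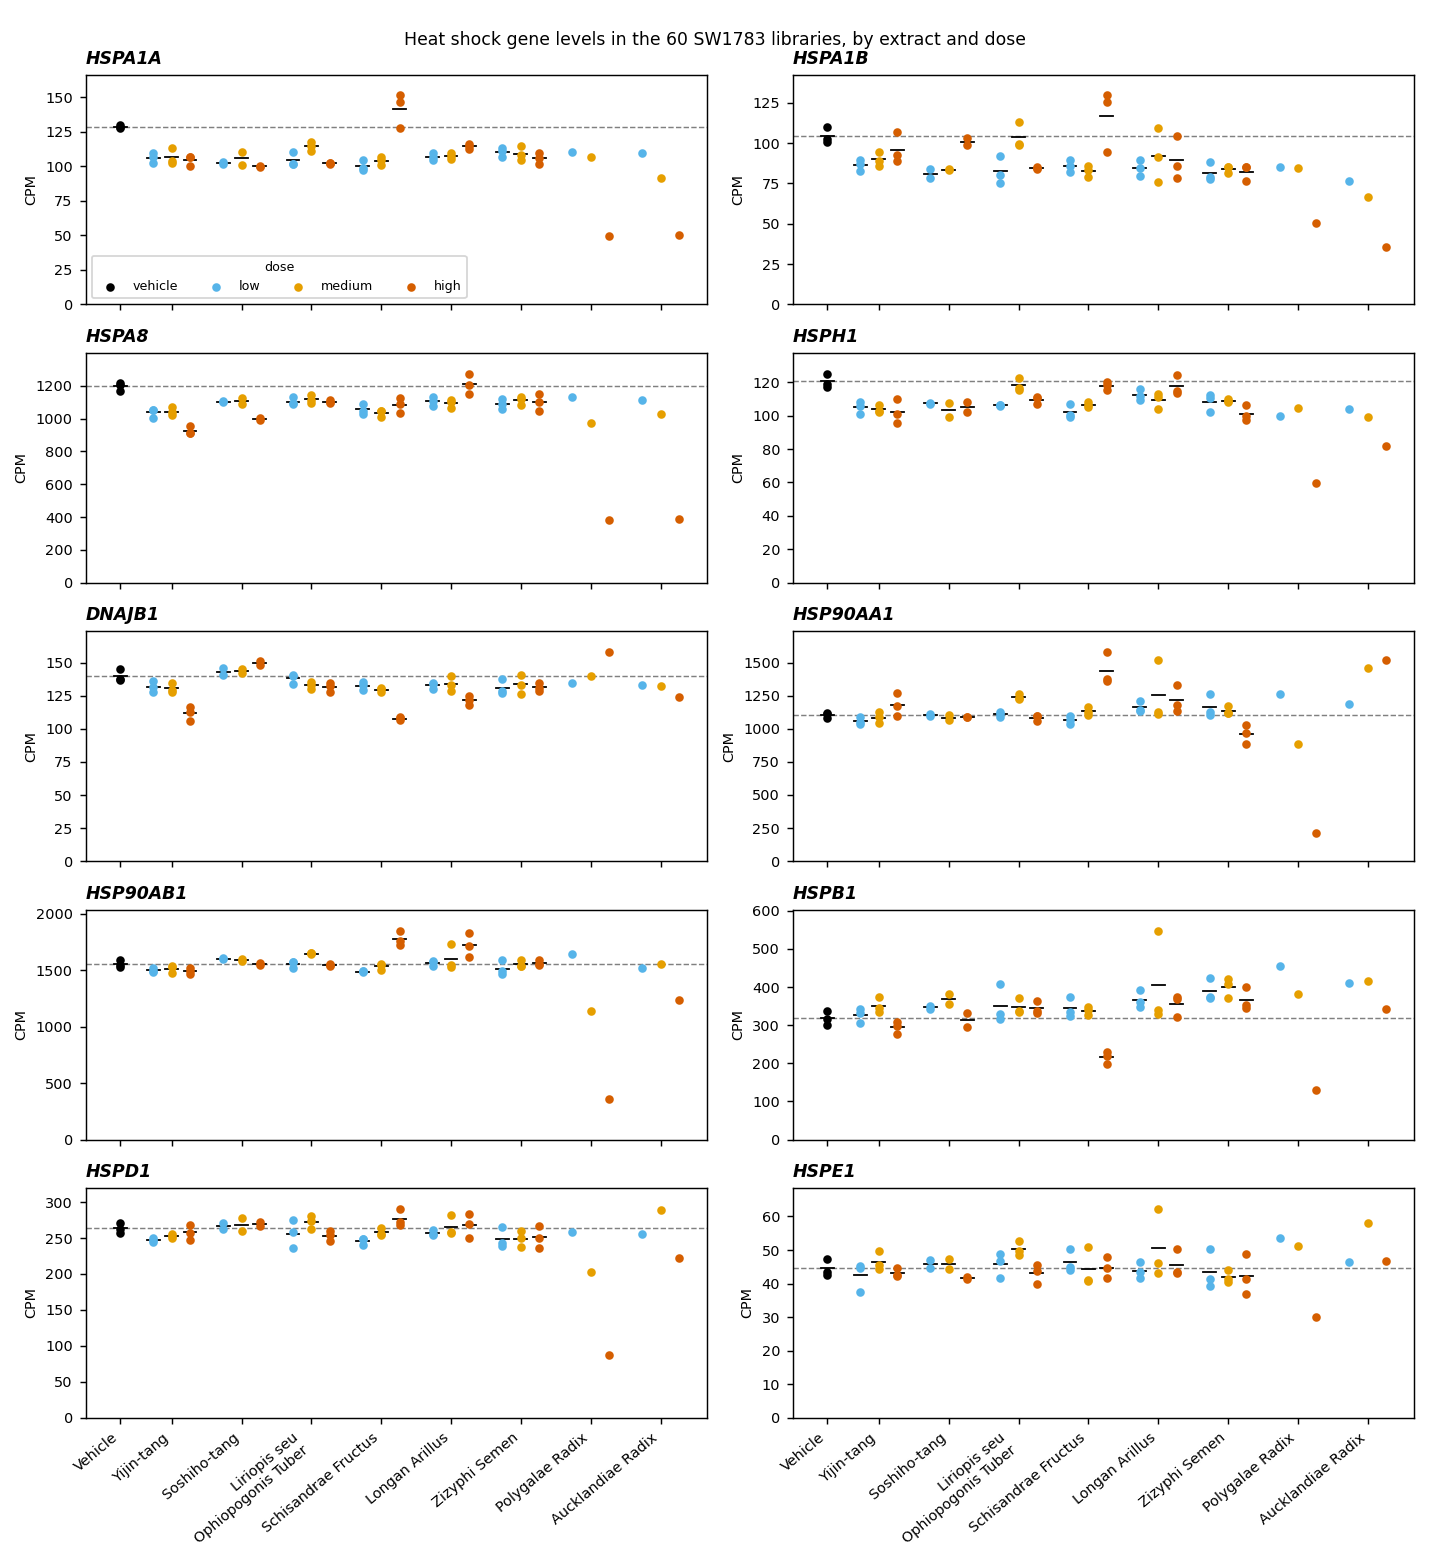
CPM of the 10 members in all 60 libraries, by extract (x axis) and dose (colour); each point is 1 library, black bars are means of groups with 2 or 3 libraries and the dashed line is the vehicle mean. The high dose of Schisandrae Fructus is above its low dose for HSPA1A and HSP90AA1 and under it for DNAJB1 and HSPB1, and the high-dose library of Polygalae Radix is the lowest point for 8 of the 10 genes.

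High dose against low dose of the same extract is the comparison within a library set, and in it the members moved most with Schisandrae Fructus. There 6 of 10 rose and 2 fell, with 45.9% of the 17851 genes tested called in either direction (22.3% higher and 23.6% lower), so a large share of the transcriptome moved with them. The rises were in HSPA1A, HSPA1B, HSPH1, HSP90AA1, HSP90AB1 and HSPD1, between 1.12-fold and 1.41-fold, and the falls in DNAJB1 and HSPB1. With Yijin-tang HSPA8 and DNAJB1 fell (3.39% of all genes fell), with Soshiho-tang HSPA8 fell (8.67%), and with Zizyphi Semen HSP90AA1 fell (3.76%). With Liriopis seu Ophiopogonis Tuber (0% of genes called) and Longan Arillus (0.936%) edgeR called 0 members; 0 and 4 members had an unadjusted p under 0.05, and DESeq2 called 0 and 3. The median log2 fold change of the 10 members was 0.18 with Schisandrae Fructus and between -0.03 and 0.06 with the other 5 replicated extracts, where the median of all genes lay within 0.01 of 0. High-dose and low-dose libraries did not overlap for 8 members and 54.9% of all genes with Schisandrae Fructus. With Soshiho-tang this held for 8 members and 62.1%, but with 2 libraries a group, where groups are apart more easily than with 3. With Yijin-tang it held for 3 and 28.8%. It held for 4 and 14.9% with Longan Arillus and for 1 and 21.2% with Zizyphi Semen. With Liriopis seu Ophiopogonis Tuber it held for 1 and 7%.

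**Figure D3:**
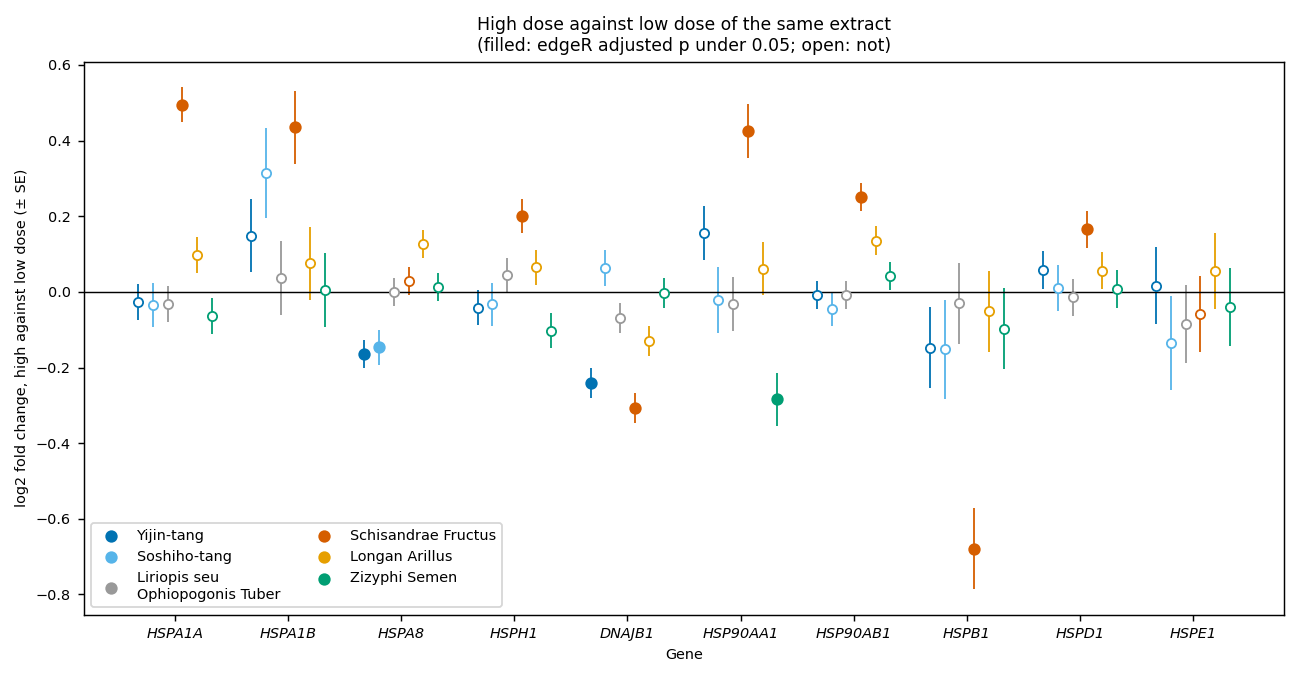
Log2 fold change of each member at the high dose against the low dose of the same extract, for the 6 extracts with 2 or 3 libraries per dose; bars are standard errors, filled points passed an adjusted p of 0.05 and open points did not. Schisandrae Fructus has 8 filled points, 6 above and 2 below 0, and the other extracts have 4 among them, all below 0.

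HSPA1A, the inducible Hsp70, lay at 105, 98.6 and 97.5 CPM in the low-dose libraries of Schisandrae Fructus and at 128, 151 and 146 CPM at the high dose. The groups did not overlap, with replicate 1 the lowest of the high dose. It rose by 0.50 ± 0.05 on the log2 scale (SE, adjusted p = 8.35e-12). Its copy HSPA1B lay at 85.8, 82.4 and 89.8 CPM at the low dose and at 94.5, 126 and 129.6 CPM at the high dose, again without overlap and again with replicate 1 lowest. The rise was 0.43 ± 0.10 (adjusted p = 0.000223). Both calls are on rows that share reads, and the pair summed into 1 row, at 191, 181 and 187 CPM at the low dose and 222, 277 and 276 CPM at the high dose, also rose. In the other 5 replicated extracts HSPA1A did not pass the test, with log2 fold changes between -0.06 and 0.10. HSPA1B was higher in both high-dose libraries of Soshiho-tang (98.7 and 103 CPM) than in both low-dose libraries (83.7 and 78.6 CPM), a log2 difference of 0.31 ± 0.12 that missed the threshold (adjusted p = 0.0574), while HSPA1A differed there by -0.03 ± 0.06. Of all genes 62.1% did not overlap in that comparison of 2 libraries a group. HSPA1B passed there without the filter on low counts (adjusted p = 0.00106) and when the other groups were left out of the fit (6.29e-05), and missed without any 1 of the 4 libraries (0.118 to 0.302). In those Soshiho-tang high-dose libraries HSPA1B held 49.7% and 50.7% of the pair's reads, and the part of a different split of shared reads in this difference was not tested.

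HSPA8, the constitutive Hsp70, did not follow the inducible copies from the low to the high dose of Schisandrae Fructus. There it lay at 1048, 1030.0 and 1088 CPM at the low dose and at 1033, 1086 and 1124 CPM at the high dose, overlapping groups with a log2 difference of 0.03 ± 0.04. With Yijin-tang it lay at 1005, 1055 and 1053 CPM at the low dose and at 915, 909.6 and 957 CPM at the high dose. All high-dose libraries were under all low-dose libraries, and HSPA8 fell by 0.16 ± 0.04 (adjusted p = 0.00236); this call was lost without the filter on low counts (adjusted p = 0.157). With Soshiho-tang it lay at 1107 and 1098 CPM at the low dose and 1003 and 991 CPM at the high dose, and fell by 0.15 ± 0.05 (adjusted p = 0.0169). That call rests on 2 libraries a group: without any 1 of the 4 (high or low replicate 2 or 3) the adjusted p was 0.074 to 0.106, at log2 fold changes between -0.15 and -0.14, and without the filter on low counts it was 0.361. In Longan Arillus, where no member passed, HSPA8 was higher in all 3 high-dose libraries (1149.5, 1205 and 1273 CPM) than in the low-dose libraries (1108, 1078 and 1132 CPM), by 0.13 ± 0.04 (adjusted p = 0.0974).

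HSPH1, the exchange factor, lay at 99.2, 101 and 107 CPM at the low dose of Schisandrae Fructus and at 115, 118 and 120.3 CPM at the high dose. The groups did not overlap, and HSPH1 rose by 0.20 ± 0.05 (adjusted p = 0.000354). In the other replicated extracts its log2 fold changes lay between -0.10 with Zizyphi Semen and 0.06 with Longan Arillus, none past the threshold. DNAJB1, the Hsp40 partner, moved the other way: with Schisandrae Fructus it lay at 135, 133 and 129.8 CPM at the low dose and at 106, 109 and 108 CPM at the high dose, and fell by 0.31 ± 0.04 (adjusted p = 2.01e-08). With Yijin-tang it lay at 132, 136 and 128 CPM at the low dose and at 117, 113 and 106 CPM at the high dose, and fell by 0.24 ± 0.04 (adjusted p = 3.29e-05). In both extracts every high-dose library was under every low-dose library. With Soshiho-tang the high-dose libraries (151 and 148 CPM) were above the low-dose libraries (146 and 141 CPM), a difference of 0.06 ± 0.05 that did not pass (adjusted p = 0.437).

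HSP90AA1, the inducible Hsp90, lay at 1099, 1064 and 1036 CPM at the low dose of Schisandrae Fructus and at 1359, 1376 and 1578 CPM at the high dose. The groups did not overlap, and the gene rose by 0.43 ± 0.07 (adjusted p = 3.08e-06). The constitutive HSP90AB1 lay at 1483, 1488 and 1489.8 CPM at the low dose and at 1721, 1757 and 1851 CPM at the high dose, and rose by 0.25 ± 0.04 (adjusted p = 3.46e-07). In Zizyphi Semen HSP90AA1 went down: the low-dose libraries lay at 1263, 1102 and 1125 CPM and the high-dose libraries at 1028, 884 and 965 CPM. The libraries did not overlap and the fall was 0.28 ± 0.07 (adjusted p = 0.00922), but it missed the threshold without low-dose replicate 1 (adjusted p = 0.0929), without high-dose replicate 2 (adjusted p = 0.105) and when the other groups were left out of the fit (adjusted p = 0.0624). HSP90AB1 did not pass there, at 0.04 ± 0.04. HSP90AA1 was higher in the 3 high-dose libraries of Yijin-tang (1093, 1175 and 1267 CPM) than in its low-dose libraries (1048, 1035 and 1087 CPM) without passing the test (0.16 ± 0.07, adjusted p = 0.22, and 0.0469 when the other groups were left out of the fit), and HSP90AB1 likewise in Longan Arillus (1616, 1714 and 1829.8 CPM against 1538, 1577 and 1571 CPM; 0.14 ± 0.04, adjusted p = 0.0661, and 0.0226 without high-dose replicate 1).

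HSPB1, the small heat shock protein, showed the largest change of the 10 members in the replicated extracts. In Schisandrae Fructus it lay at 373, 336 and 325 CPM at the low dose and at 199, 229.7 and 219 CPM at the high dose, and fell by 0.68 ± 0.11 on the log2 scale (adjusted p = 1.27e-06). Every high-dose library was under every low-dose library. The other 5 extracts gave log2 fold changes between -0.15 and -0.03, none past the threshold. Of the mitochondrial pair, HSPD1 lay at 249, 240.4 and 248 CPM at the low dose of Schisandrae Fructus and at 272, 268 and 290.4 CPM at the high dose, and rose by 0.17 ± 0.05 (adjusted p = 0.00548). Its partner HSPE1 overlapped between the doses (50.3, 44.1 and 44.8 CPM against 41.6, 44.7 and 47.9 CPM) and did not pass, at -0.06 ± 0.10. No other replicated extract had a call for either gene. The standard error was 0.10 for HSPE1 and 0.05 for HSPD1, so a change of the size seen for HSPD1 may not have been detectable for it.

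The change from low to high dose was then compared between the 6 replicated extracts themselves, with 1 test per gene over all 6. It differed for 7 of 10 members, beside 38.2% of all genes: HSPA1A (adjusted p = 7.72e-09), DNAJB1 (7.71e-06), HSP90AA1 (9.91e-06), HSP90AB1 (9.79e-05), HSPA8 (0.000122), HSPH1 (0.00356) and HSPB1 (0.00407). HSPA1B (0.0577), HSPD1 (0.281) and HSPE1 (0.901) did not pass. Doses in µg/mL were the same in 5 of these extracts and lower in Schisandrae Fructus. In the 15 pairwise contrasts, adjusted over all genes within each contrast, the change in HSPA1A with Schisandrae Fructus exceeded that with each other extract, by 0.52 (Yijin-tang), 0.53 (Soshiho-tang), 0.53 (Liriopis seu Ophiopogonis Tuber), 0.56 (Zizyphi Semen) and 0.40 (Longan Arillus), with SEs of 0.07 in each case. Of all genes 23.9%, 24.1%, 31.1%, 33.2% and 27.4% were called in these 5 contrasts, which also passed for HSP90AA1, between 0.27 and 0.71 higher, and for HSPB1, between 0.53 and 0.65 lower on the log2 scale. For DNAJB1 the change with Schisandrae Fructus did not differ past the threshold from that with Yijin-tang (-0.06 ± 0.06) but was lower than with the other 4, by 0.18 to 0.37. Yijin-tang and Soshiho-tang, given at the same doses in the same library set, differed in the change of DNAJB1 (-0.30 ± 0.06 for Yijin-tang minus Soshiho-tang) and in no other member past the threshold, beside 9.4% of all genes.

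At the medium dose edgeR called 0 of 10 members in each of the 6 replicated extracts, and DESeq2 called 0 as well. Few genes of any kind were called at that dose: 0.0224% with Yijin-tang, 0.0112% with Soshiho-tang, 0.0392% with Schisandrae Fructus and 0% with the other 3. Of these 60 tests 5 had an unadjusted p under 0.05, all of them with Liriopis seu Ophiopogonis Tuber. In that extract HSPA1A, HSPA1B, HSPH1, HSP90AA1 and HSP90AB1 were higher in every medium-dose library than in every low-dose library, 5 of 10 members beside 12.8% of all genes whose groups did not overlap. Its medium-dose libraries held 29.59 to 35.52 M counts and its low-dose libraries 22.27 to 25.44 M. The part of depth in these differences was not tested. HSPA1B lay at 99.0, 113 and 99.4 CPM at the medium dose against 80.4, 92.0 and 75.3 CPM at the low dose (0.33 ± 0.10, adjusted p = 0.405), and HSP90AA1 at 1231, 1226 and 1265 CPM against 1124, 1114 and 1089 CPM (0.16 ± 0.07, adjusted p = 0.63). Without the filter on low counts HSPA1B passed in this comparison (edgeR adjusted p = 0.000104). At the high dose of that extract, which is higher by 5-fold in µg/mL, both genes were back within the range of the low dose, apart from 1 HSP90AA1 library at 1058 CPM under it.

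Extracts that shared dose and library set were also set directly against each other at the high dose. Soshiho-tang was above Yijin-tang for DNAJB1 (151 and 148 CPM against 117, 113 and 106 CPM), by 0.42 ± 0.04 (adjusted p = 2.47e-10), the only member called, where 11.3% of all genes were higher with Soshiho-tang; a second member, HSPA8, was called without Yijin-tang high replicate 3. Longan Arillus was above Zizyphi Semen for 4 members, beside 5.6% of all genes. HSP90AA1 lay at 1136, 1178 and 1329 CPM with Longan Arillus and at 1028, 884 and 965 CPM with Zizyphi Semen, without overlap, and differed by 0.34 ± 0.07 (adjusted p = 0.000781). In this comparison 5 members and 26.2% of all genes did not overlap. HSPH1 lay at 115, 114 and 124 CPM against 106, 97.1 and 99.9 CPM and differed by 0.22 ± 0.05 (adjusted p = 0.00101). HSP90AB1 and HSPA8 differed by 0.14 ± 0.04 each (adjusted p = 0.0112 for both). Both were lost without Longan Arillus high replicate 3 (adjusted p = 0.17 and 0.134), and HSPA8 also without Zizyphi Semen high replicate 2 (adjusted p = 0.11).

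Against vehicle, HSPA1A fell in 17 of 18 comparisons of the replicated extracts and rose in 1, HSPA8 fell in 14, HSPH1 in 12 and HSPA1B in 5. Without the filter on low counts 21 member calls against vehicle were lost and 18 gained. HSPA8 then lost its falls at every dose of Liriopis seu Ophiopogonis Tuber and Zizyphi Semen. Of the HSPA1B falls, only that at the low dose of Zizyphi Semen was kept in every setting. The share of all genes that fell in as many comparisons was not computed. For HSPA1A the vehicle libraries lay at 128, 128 and 130.1 CPM, and the 19 low-dose libraries of all 8 extracts between 97.5 and 113 CPM, with a median of 107 CPM. Its log2 differences at the low doses were -0.28 (Yijin-tang), -0.34 (Soshiho-tang), -0.30 (Liriopis seu Ophiopogonis Tuber), -0.37 (Schisandrae Fructus), -0.27 (Longan Arillus) and -0.23 (Zizyphi Semen), all past the threshold; these comparisons share the 3 vehicle libraries and so are not separate evidence. HSPA8 and HSPH1 were also under the vehicle range in all 19 low-dose libraries, at 1005 to 1132 CPM against 1168 to 1218 CPM and at 99.2 to 116 CPM against 117 to 125 CPM, as was HSPA1B at 75.3 to 92.0 CPM against 101 to 110.1 CPM. HSPB1 was not: 13 of the 19 libraries were above its vehicle range of 301 to 336 CPM and none under it. Separation from vehicle was common among all genes. In single comparisons of a low dose with vehicle, 26.3% (Schisandrae Fructus) to 42.5% (Soshiho-tang) of the 17851 genes did not overlap. Soshiho-tang had 2 libraries at that dose and the other replicated extracts 3. Smaller groups are apart more easily, so its share is not directly comparable. The share for all 19 libraries together was not computed. At the high dose of Schisandrae Fructus replicate 1 of HSPA1A was just under the vehicle range and replicates 2 and 3 were above it, a log2 difference of 0.13 ± 0.05 (adjusted p = 0.0198) that was lost without vehicle replicate 1 (adjusted p = 0.0527), without high-dose replicate 2 (0.129) or replicate 3 (0.0515), when the other groups were left out of the fit (0.0802), and when HSPA1A and HSPA1B, which share reads, were summed (0.0543). Vehicle and treated libraries belong to different library sets, and the part of this in the differences cannot be told apart from treatment.

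Member counts against vehicle were as follows, for low, medium and high dose in turn and with the share of all genes that fell. With Yijin-tang 3, 3 and 4 members fell (1.61%, 10.4% and 11.7% of all genes). With Soshiho-tang 1, 2 and 3 fell (1.37%, 2.92% and 16.2%), and the medium-dose count was 1 without vehicle replicate 3 or either medium-dose library and the low-dose count 2 without vehicle replicate 1. With Liriopis seu Ophiopogonis Tuber 4, 2 and 2 fell (4.55%, 8.86% and 2.67%). Those counts leaned on single libraries: at the high dose 1 was left without any of the 6 libraries, at the medium dose 0 without vehicle replicate 3 and 1 without vehicle replicate 1 or 2 or medium replicate 1 or 2, and at the low dose 1 without vehicle replicate 2 or 3 or low replicate 2 or 3 and 2 without vehicle replicate 1. With Schisandrae Fructus 3 and 4 fell at the low and medium dose, and at the high dose HSPA1A, HSP90AA1 and HSP90AB1 rose and HSPA8, DNAJB1 and HSPB1 fell (0.611%, 3.33% and 26.7% fell, and 23.4% rose at the high dose); the medium-dose count was 2 without vehicle replicate 3 or medium replicate 2. With Longan Arillus 1 fell at the low dose, 3 fell and 1 rose at the medium dose, and 2 fell and 1 rose at the high dose (3.73%, 15.1% and 10.3% fell, and 10% and 5.61% rose at the medium and high dose). The medium-dose count was 2 without vehicle replicate 3 and 1 without medium replicate 3, and its rise, HSPB1 at 0.35 ± 0.10, came to 0.09 without that library. With Zizyphi Semen 4 fell, 4 fell with 1 rise, and 5 fell (11.9%, 9.09% and 7.97% fell, and 5.32% rose at the medium dose). Without any 1 of the 6 libraries its medium-dose count was 1 or 2, and its high-dose count was 2 without vehicle replicate 1 or high replicate 2 and 3 without vehicle replicate 2 or high replicate 3.

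**Figure D4:**
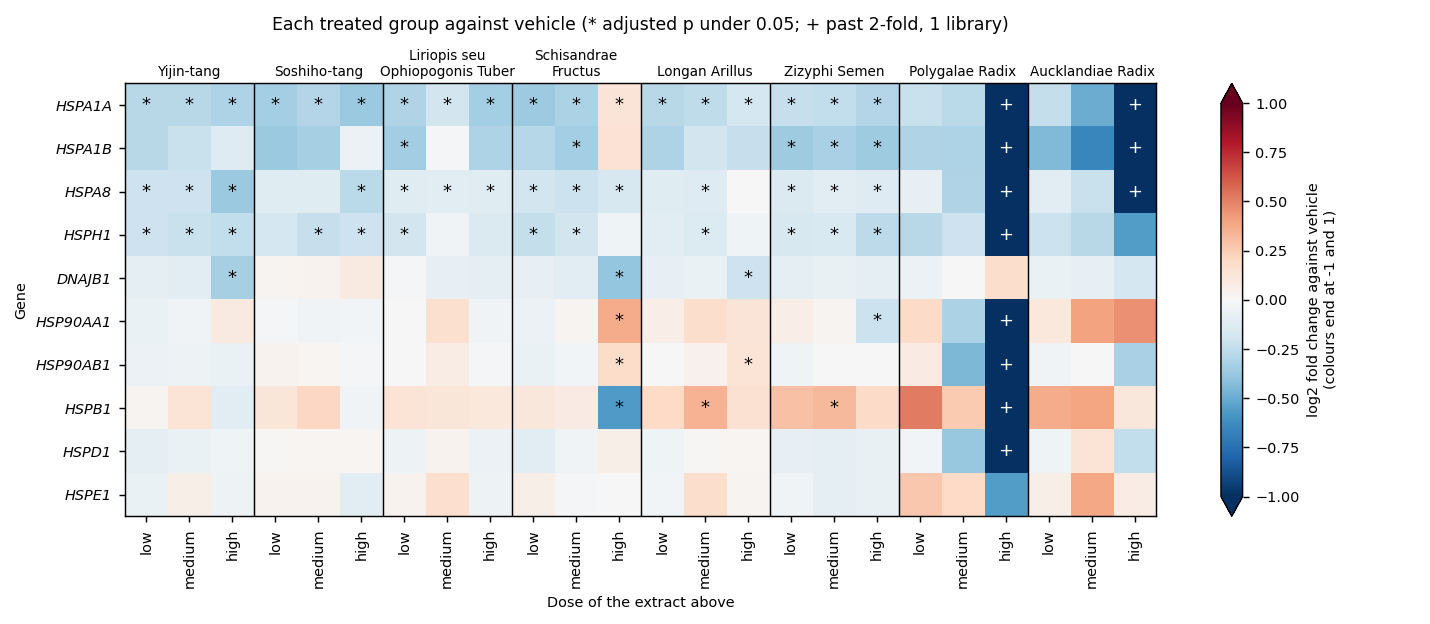
Log2 fold change of each member in each treated group against vehicle; colours end at -1 and 1, stars mark an adjusted p under 0.05 and plus signs a change past 2-fold in an extract with 1 library per dose. HSPA1A is blue in every column except the high dose of Schisandrae Fructus, and the deepest blue is at the high doses of Polygalae Radix and Aucklandiae Radix.

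The largest differences of all were between single libraries of the 2 extracts with no replicates, which allow no test; a gene was counted when 1 library was at least 2-fold from the other and either reached 10 CPM. With Polygalae Radix 6 of 10 members were past 2-fold lower at the high dose than at the low dose, beside 15.1% of the 10307 genes that reached 10 CPM, and none was past 2-fold higher (7.06%). HSP90AA1 lay at 1262, 888 and 214 CPM at 1.2, 6 and 30 µg/mL, and HSP90AB1 at 1646, 1137 and 358 CPM. Those are ratios of 0.17 and 0.22 from low to high dose, and in both genes the medium dose was already under all vehicle libraries, which form another library set. So was the medium dose for HSPA1A, HSPA1B, HSPA8, HSPH1 and HSPD1, and all of these but HSPD1 were under them at the low dose too. HSPB1 went from 455 to 381 and 129.9 CPM, HSPA8 from 1129 to 972 and 381 CPM, HSPD1 from 259 to 202 and 87.9 CPM, and HSPA1A from 110.2 to 107 and 49.6 CPM. HSPA1B (85.0, 84.5 and 50.4 CPM), HSPH1 (99.5, 104 and 59.7 CPM) and HSPE1 (53.6, 51.1 and 30.1 CPM) were lower at the high dose by less than 2-fold. DNAJB1 was the exception, at 134, 140.3 and 158 CPM. At the medium dose no member was past 2-fold against the low dose (0.0706% of genes either way). Against the vehicle mean 8 members were past 2-fold lower at the high dose (13.7% of genes), all but DNAJB1 and HSPE1. The share of counts from mitochondrially encoded genes moved with dose in this extract (14.2%, 16.1% and 20.3%) and its part in these values was not tested.

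With Aucklandiae Radix the members past 2-fold were the 3 Hsp70 genes. At the high dose 3 members were past 2-fold lower than at the low dose, beside 4.6% of the 10093 genes that reached 10 CPM, and the same 3 against vehicle, beside 8.36%. HSPA8 lay at 1111.5, 1026 and 386 CPM at 6.4, 32 and 160 µg/mL, HSPA1A at 109, 91.4 and 50.3 CPM, and HSPA1B at 76.8, 66.6 and 35.6 CPM. These 3 were at their highest at the low dose and at their lowest at the high dose. HSP90AA1 went the other way, at 1189, 1462 and 1518 CPM, while HSP90AB1 lay at 1518, 1553 and 1239 CPM. HSPH1 (104, 99.3 and 81.6 CPM), DNAJB1 (133, 133 and 124 CPM), HSPB1 (411, 417 and 343 CPM), HSPD1 (256, 289 and 223 CPM) and HSPE1 (46.4, 58.1 and 46.8 CPM) stayed within 2-fold. HSPA8 was thus at 381 and 386 CPM in the 2 high-dose libraries, while HSP90AA1 was at 214 CPM in one and 1518 CPM in the other. With 1 library per dose the difference between the 2 extracts was not tested. The share of counts from mitochondrially encoded genes went down with dose of Aucklandiae Radix (14.9%, 12.1% and 10.1%), the last being the lowest of the 60 libraries, and its part in these values was not tested.

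**Figure D5:**
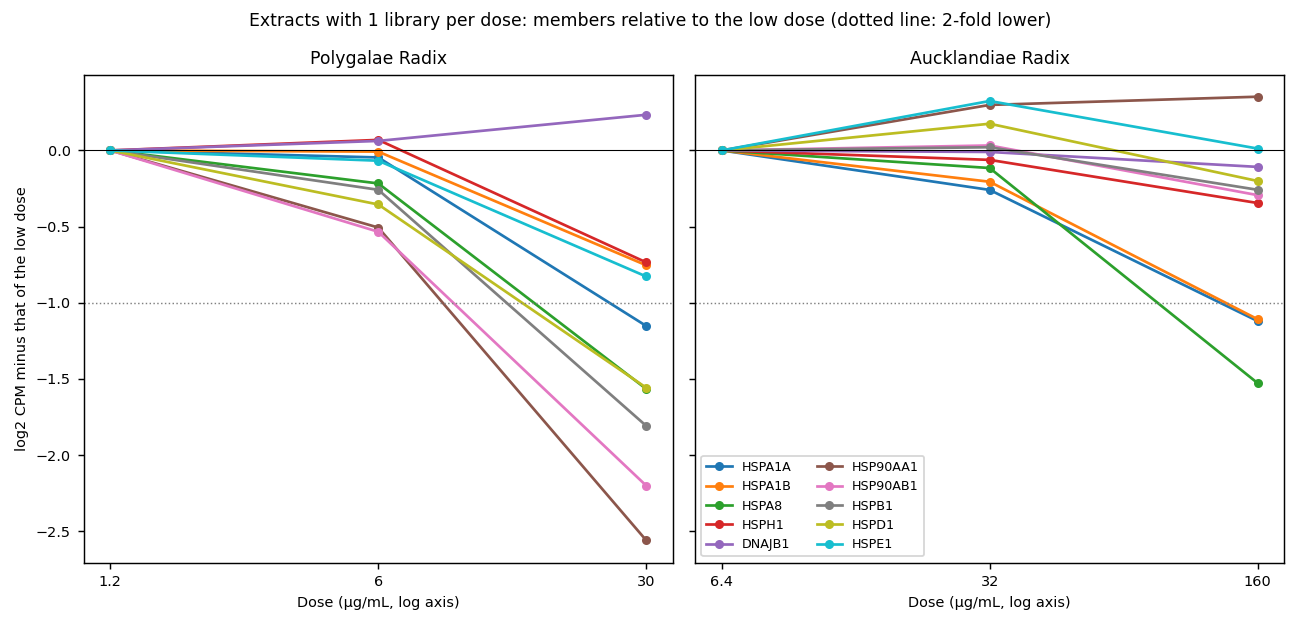
Log2 CPM of each member minus its own value at the low dose, against dose (log axis), for the 2 extracts with 1 library per dose; each point is 1 library and the dotted line marks 2-fold lower. At the high dose of Polygalae Radix 6 lines end under the dotted line, and at that of Aucklandiae Radix the 3 Hsp70 genes do.

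The wider chaperone network was described by 5 lists, by counts alone. With Schisandrae Fructus at the high against the low dose, 10 of 13 mitochondrial chaperones and proteases rose and none fell (median log2 fold change 0.26, against -0.0016 for all genes). GRPEL1, the exchange factor of mitochondrial Hsp70, rose by 0.66 ± 0.07 (55.5 against 34.9 CPM) and the protease YME1L1 by 0.32 ± 0.04 (243 against 194 CPM). Among 18 co-chaperones of Hsp70 and Hsp90, 7 rose and 2 fell (median 0.05): AHSA1, which stimulates the Hsp90 ATPase, rose by 0.59 ± 0.07, STIP1, which links Hsp70 to Hsp90, rose by 0.45 ± 0.04, and ST13, an Hsp70-interacting protein, fell by 0.29 ± 0.04. Of the 8 subunits of the cytosolic chaperonin CCT, 6 rose (median 0.19), with CCT4 at 0.32 ± 0.06, CCT8 at 0.27 ± 0.05 and TCP1 at 0.23 ± 0.05. A list called other heat-inducible chaperones held 24 genes, of which 22 were tested. The name is that of the list, and induction by heat was not measured for its genes. Among them 10 rose and 3 fell (median 0.17). DNAJB5, an Hsp40, rose by 0.63 ± 0.05, and HSPB8, a small heat shock protein like HSPB1, fell by 0.92 ± 0.07. Of the 4 regulators HSF1, HSF2 and HSF4 rose and HSBP1, which binds HSF1 and is named here after its values were seen, fell; HSF2 rose by 0.34 ± 0.05. These counts stand beside the 22.3% of all genes higher and 23.6% lower in that comparison.

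With Soshiho-tang, where 9.91% of all genes rose and 8.67% fell, the same lists held fewer calls. HSPA9, DNAJB9 and HSF1, described next, were also called higher with Schisandrae Fructus (by 0.33, 0.39 and 0.20), and the difference between the extracts was not tested for them. HSPA9, the mitochondrial Hsp70, rose by 0.54 ± 0.05 (512 against 352 CPM) and was 1 of 4 mitochondrial genes of 13 that rose, while HSPD1 (0.01 ± 0.06) and HSPE1 (-0.13 ± 0.12) did not pass. DNAJB9, an Hsp40 of the endoplasmic reticulum, rose by 1.45 ± 0.09 (53.6 against 19.7 CPM). It was among 4 rises and 3 falls (HSPA2, HSPA4L and DNAJA1) in the list called other heat-inducible chaperones. The other mitochondrial rises were GRPEL2, HSCB and LONP1; these names outside the stated rule were added after the values were seen. HSF1 rose by 0.39 ± 0.07 (96.8 against 73.9 CPM), 1 of 4 regulators called; 1 co-chaperone of 18, BAG1, rose and no CCT subunit was called. With Yijin-tang 2 of the 22 tested genes of the list called other heat-inducible chaperones rose, DNAJB5 by 0.35 ± 0.05 and DNAJB9 by 0.30 ± 0.08. HSPB8 and DNAJB2 of that list fell, where 3.61% of all genes rose and 3.39% fell. The other 4 lists had no call. With Zizyphi Semen HSF4 fell by 1.27 ± 0.20 at a low level (1.86 against 4.51 CPM) and DNAJB5 rose by 0.16 ± 0.05, where 3.76% of all genes fell and 2.02% rose. With Longan Arillus DNAJB5 was the single call, a rise of 0.20 ± 0.05, where 0.342% of all genes rose. With Liriopis seu Ophiopogonis Tuber none of the 5 lists had a call. At the high dose of Polygalae Radix 7 of 8 CCT subunits and 7 of 17 co-chaperones that reached 10 CPM were past 2-fold lower than at the low dose, with list medians of -1.63 and -0.66, beside 15.1% of all genes. Of the other heat-inducible chaperones 6 of 17 were past 2-fold lower and 1 higher (median -0.47), and of the mitochondrial genes 1 of 12 was lower (median -0.24). At that of Aucklandiae Radix no CCT subunit was (median 0.15).

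Across the 25 group means the members did not move as 1 block. Pearson's r of HSP90AA1 with HSP90AB1 was 0.93, of HSPA1A with HSPA8 0.95 and of HSP90AB1 with HSPD1 0.99, while DNAJB1 gave -0.58 with HSP90AA1 and -0.33 with HSPA1A. Over the 19 replicated groups, without all 6 single-library groups, the same 5 values were 0.69, 0.42, 0.78, -0.59 and -0.49, and HSPB1 with HSPA1A went from 0.44 to -0.59. Among 10976 other genes that passed the filter and averaged at least 5 CPM, those whose group means went most like the mean of the 8 cytosolic members were KPNB1 (r = 0.98), POSTN (0.97), SERPINH1 (0.97), DDX54 (0.97) and CSTF2 (0.97), and most like the 2 mitochondrial members RPL5 (0.98), RPL7A (0.98), ACAT1 (0.98), CCT5 (0.98) and EBNA1BP2 (0.97). Over the 19 replicated groups, a choice made after these values were seen, r was 0.78 for KPNB1, 0.07 for SERPINH1, and 0.59 to 0.75 for the 5 genes of the mitochondrial list. The groups share library sets, depth and scaling, so these are descriptions only.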

How the data were processed

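RNA of SW1783 cells was sequenced on an MGI platform from strand-specific libraries. Reads were handled with FastQC 0.11.9, Trim Galore 0.6.5, STAR 2.7.3a and RSEM 1.3.3 on hg38 (GRCh38), per the submitters' processing notes; neither annotation release nor strand setting is stated there. The authors deposited expected counts, in which reads shared by genes are divided; they were rounded to whole numbers here, and 10.86% of all values had not been whole. One edgeR model took all 54 libraries from the 19 groups with replicates (edgeR 4.0.16, quasi-likelihood test, TMM scaling, filter by group, R 4.3.3, limma 3.58.1), leaving 17851 genes and 35 residual degrees of freedom. P-values were adjusted by Benjamini-Hochberg over all genes, with a threshold of 0.05; standard errors are the log2 fold change divided by the square root of F. CPM used TMM factors over all 60 libraries. Single libraries were compared by a 2-fold rule without a test. DESeq2 1.42.0 and the other alternatives are given with the closing limits. On simulated data of the Schisandrae Fructus comparison (17504 genes), the fit found 27 of 100 genes changed 1.2-fold and 64 of 100 changed 1.5-fold. False calls were 3 among 94. For Soshiho-tang, with 2 libraries a group, it found 12 and 59 of 100, with 5 false calls among 76. Only these genes were changed, whereas 45.9% of all genes were called in the real Schisandrae Fructus comparison. Each simulated gene also took the spread of the trend at its level, without a spread of its own around that trend. The rates therefore do not give the power or the share of false calls in the real comparisons, and changes as small as many of those reported can be missed. No 2 libraries of a group were copies (51 pairs, chi-square per degree of freedom at least 2.24). The members and lists were chosen with earlier results of these data known. Named genes were all 10 members, from each list up to 3 genes with the lowest adjusted p among those called, and the 5 genes most like each group of members by Pearson's r.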

Additional observations from a re-analysis of the deposited data

Results flagged for a closer look

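The change from low to high dose differed among the 6 replicated extracts, by edgeR's quasi-likelihood test of the difference itself with adjustment over all genes, for 7 members: HSPA1A (adjusted p = 7.72e-09), HSPA8 (0.000122), HSPH1 (0.00356), DNAJB1 (7.71e-06), HSP90AA1 (9.91e-06), HSP90AB1 (9.79e-05) and HSPB1 (0.00407). For HSPA1A, HSP90AA1 and HSPB1 each of the 5 contrasts of Schisandrae Fructus with another extract passed the threshold. For HSPA8 the largest contrast was between Yijin-tang and Longan Arillus, at -0.29 on the log2 scale.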

How the results depend on the processing

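The 8 calls with Schisandrae Fructus at the high against the low dose were 8 in every leave-one-out fit, and the difference among extracts held for 7 to 8 members. Single-gene results kept their call, or the lack of one, in 4055 comparisons of a setting with the reported value. They lost the call in 148 and gained one in 73. Direction was compared only where either fit made a call, and the test among extracts has no direction. Leaving out 1 library, the number of members called ran from 0 to 0 for Soshiho-tang high against low, 0 to 1 for Zizyphi Semen and for Longan Arillus high against low, 1 to 2 for Soshiho-tang against Yijin-tang and 2 to 4 for Longan Arillus against Zizyphi Semen. Against vehicle it ran from 1 to 2 (Soshiho-tang low and medium), 1 to 3, 0 to 2 and 1 to 1 (Liriopis seu Ophiopogonis Tuber low, medium and high), 2 to 3 (Schisandrae Fructus medium), 1 to 5 (Longan Arillus medium), 1 to 2 (Zizyphi Semen medium) and 2 to 5 (Zizyphi Semen high). The cause was not tested for any of the following. Without the filter on low counts the count was 1 for Yijin-tang high and for Liriopis seu Ophiopogonis Tuber medium against low, 2 for Soshiho-tang low, 2 for Liriopis seu Ophiopogonis Tuber low, 3 for Longan Arillus low and 3 for Zizyphi Semen medium against vehicle, and 2 for Longan Arillus against Zizyphi Semen. With DESeq2 it was 3 for Longan Arillus high against low, 4 for Soshiho-tang low and medium and Liriopis seu Ophiopogonis Tuber high against vehicle, 3 for Longan Arillus low against vehicle, and 2 for Soshiho-tang against Yijin-tang. With DESeq2 size factors it was 1 for Liriopis seu Ophiopogonis Tuber medium and high against vehicle, and with HSPA1A and HSPA1B summed it was 1 for the medium dose. In fits of only the libraries compared it was 3 for Soshiho-tang high and 0 for Zizyphi Semen high against low; 2 (Soshiho-tang low), 4 (Soshiho-tang medium), 0 (Liriopis seu Ophiopogonis Tuber low) and 3, 0 and 1 (Longan Arillus low, medium and high) against vehicle; and 2 for Longan Arillus against Zizyphi Semen. At 1.5-fold, 1 member passed for Aucklandiae Radix medium against vehicle.

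Replicate numbers did not pair the libraries in most comparisons: the correlation of same-numbered deviations lay between -0.148 and 0.245. It exceeded 0.1 throughout in 1 of 32 comparisons, Liriopis seu Ophiopogonis Tuber medium against low (0.111, 0.174 and 0.101). With the replicate block the count was 3 for Longan Arillus low against vehicle, and with the replicate block within library set 2 for Soshiho-tang high against low, where HSPA1B was added (edgeR adjusted p = 0.0473). The other counts stayed within 1.5 times, but similar counts could hold different members and directions. Examples come from fits without the filter on low counts. Liriopis seu Ophiopogonis Tuber medium against vehicle lost the falls of HSPA1A and HSPA8 and gained rises of HSP90AA1 and HSPE1. Longan Arillus medium against vehicle lost the falls of HSPA8 and HSPH1 and gained rises of the same genes, HSP90AA1 and HSPE1. Soshiho-tang high against low lost the fall of HSPA8 and gained a rise of HSPA1B.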
